A study of Mus musculus with 8 samples.

Results

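*D14Ertd668e* and *Gm4902* are adjacent mouse genes of the *Phf11* family on chromosome 14, and they are 2 of the 875 genes listed in an RNA-sequencing table of mouse embryonic fibroblasts (MEFs). Both were chosen by their measured levels in the same libraries: near loss in EZHIP-expressing and EED-null cells and a higher level in K27M-expressing cells. Their levels and fold changes in all 4 groups are therefore a description and carry no test.

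MEFs are connective tissue cells grown from embryos, and RNA depleted of ribosomal RNA was sequenced in 4 groups of 2 libraries each. Control cells were the parental MEFs, whose *EED* gene is flanked by loxP sites (EED floxed). EZHIP cells carried human EZHIP and K27M cells carried histone H3.3 K27M, each as a stable transgene delivered by lentivirus from an EF1a promoter under puromycin selection. EED-null cells came from the same floxed cells after a transient Cre lentivirus, and they are a single selected clone, so effects of EED loss and of that clone cannot be told apart. The table holds only genes that differ by at least 2-fold between EZHIP and control means, so the comparison of those groups was fixed by the selection of the table. *Eed* is not among the listed genes and its loss was not checked here.

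EED is a core subunit of Polycomb repressive complex PRC2, which methylates histone H3 at lysine K27 and is associated with gene silencing. The K27M histone and EZHIP both inhibit this enzyme, whereas deletion of EED removes its activity. PHF11 proteins contain a PHD finger, a zinc-binding fold that in many proteins reads histone tails. Interferons are secreted signals that switch on antiviral genes, many of which carry the interferon-stimulated response element (ISRE) in their promoters.

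The *Phf11* family of the mm9 build (GENCODE M1 annotation) comprises 5 protein-coding genes in a row on the minus strand of chromosome 14. *Gm6907* (ENSMUSG00000091144.1, RefSeq *Phf11c*) spans positions 59999671 to 60014218. *D14Ertd668e* (ENSMUSG00000068245.7, RefSeq *Phf11d*) spans 59966244 to 59984327, and *Gm4902* (ENSMUSG00000091649.1, RefSeq *Phf11b*) spans 59939801 to 59960167. They are followed by *Phf11* (RefSeq *Phf11a*) and *Gm6904*. Only 6076 bp separate *D14Ertd668e* from *Gm4902*, and 15343 bp separate it from *Gm6907*, which lies upstream. No other annotated gene overlaps *D14Ertd668e*, *Gm4902* or *Gm6907*. *Gm6907* is the only other family gene in the table, while *Phf11*, *Gm6904* and the adjoining *Setdb2*, which encodes a SET-domain protein, are not listed and have no value here.

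The family genes are close copies. Over aligned coding bases, *D14Ertd668e* was 90.1% identical to *Gm4902* and 85.4% to *Gm6907*, and *Gm4902* was 97.0% identical to *Phf11*. Windows of 50 bases were an assumption, since the read length is not given in the sources used here. Of all 50-base windows of the *Gm4902* transcript (1163 nt, 9 exons), 47.9% also occurred in a transcript of another gene. The share was between 13.9% and 23.5% over the 4 transcripts of *D14Ertd668e* (1130 to 2666 nt) and 10.9% for the *Gm6907* transcript (3458 nt). Reads from shared stretches were divided between genes by an estimate. Every value of *Gm4902*, its control and K27M levels included, is therefore uncertain by that division, and a small value also by counting. The fractions in the estimated reads show this division: the control libraries held 27.99 and 22.77 reads of *Gm4902*.

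Promoters are shown because the 2 genes were high and low in the same groups, while *Gm6907* of the same family had smaller differences. The sequences are RefSeq promoters of build GRCm38.p6, minus strand, from 175 bases before to 25 after the annotated start, and all 3 genes had 1 entry. Capitals mark GAAANNGAA, a core of the ISRE, and AANNGAAA, a core recognised by interferon regulatory factors, which was added after the promoters had been read. The 2 patterns overlap where both are present, and both strands were searched. The windows lie at chr14:59365466-59365665 for *D14Ertd668e*, chr14:59341306-59341505 for *Gm4902* and chr14:59393488-59393687 for *Gm6907*.
D14Ertd668e: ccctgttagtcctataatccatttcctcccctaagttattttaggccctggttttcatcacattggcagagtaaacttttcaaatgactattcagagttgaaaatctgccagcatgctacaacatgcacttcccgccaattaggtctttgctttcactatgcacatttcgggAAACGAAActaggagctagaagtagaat
Gm4902: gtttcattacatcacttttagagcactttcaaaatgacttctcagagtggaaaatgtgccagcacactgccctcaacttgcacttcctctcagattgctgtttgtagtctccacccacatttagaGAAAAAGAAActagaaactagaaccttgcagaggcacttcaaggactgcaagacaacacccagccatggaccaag
Gm6907: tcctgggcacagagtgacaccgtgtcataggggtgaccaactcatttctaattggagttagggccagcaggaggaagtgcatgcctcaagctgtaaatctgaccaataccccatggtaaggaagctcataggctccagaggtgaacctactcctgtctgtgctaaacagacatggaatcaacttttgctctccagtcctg
In the full promoter windows (250 bases before to 50 after the start), *Gm4902* held GAAANNGAA with its first base 50 bases before the start, and AANNGAAA within the same run. *D14Ertd668e* held AANNGAAA across the annotated start, from 3 bases before it, and no GAAANNGAA. *Gm6907* held neither pattern, which says only that these letters are not in its window. That window is not at the start of the mm9 gene given above. Between the builds the starts of *D14Ertd668e*, *Gm4902* and *Phf11* move by the same shift. By that shift the RefSeq start of *Gm6907* lies inside its mm9 gene. Sequence at the mm9 start of *Gm6907* was not searched, so its window is no contrast to the pair. The patterns were not particular to the pair: *Phf11*, which is not listed and whose window was 98.9% identical to that of *Gm4902*, held both, with first bases 29 and 27 bases before its start. Of 27025 promoters in the reference table, 8.57% held GAAANNGAA and 24.2% held AANNGAAA. A further pattern searched on both strands, TTCNNNGAA, was in none of these 4 promoters and in 8.47% of all. The *D14Ertd668e* and *Gm4902* windows printed above were 73.5% identical over 147 aligned bases. The value for *D14Ertd668e* and *Gm6907* was 64.8% over 125 aligned bases, and it is no contrast for the reason given above. Identity of unrelated promoters was not computed, so neither value has a background. The observed to expected CpG ratio of all 3 full windows was below the median of 0.389 over all promoters. It was 0.217 for *D14Ertd668e*, with 31.5% of all promoters lower, and 0 for *Gm4902*. The *Gm6907* window, which is not at the mm9 start, had 0.111, with 15.3% of all promoters lower.

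*D14Ertd668e* was detected in every library, most in K27M cells and least in EED-null cells. Values are estimated reads of a gene divided by a size factor of the library (normalized reads), without scaling by gene length. Control libraries held 154.3 and 163.7 normalized reads, K27M libraries 520.6 and 502.2, EZHIP libraries 11.1 and 11.4, and EED-null libraries 9.70 and 3.88. Both K27M libraries were above both control libraries, and all EZHIP and EED-null libraries were far below them, with no overlap between any groups. The order of the means was EED-null (6.79 ± 4.12 SD), EZHIP (11.2 ± 0.244), control (159.0 ± 6.63) and K27M (511.4 ± 13.0), n = 2 each. EED-null and EZHIP, the nearest neighbours in this order, rest on 11 and 19.3 estimated reads over the group. Their 95% Poisson intervals, 3.13 to 11.2 and 6.64 to 17.2 normalized reads, overlap; such intervals cover counting error only.

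Relative to control, *D14Ertd668e* was 3.22-fold higher in K27M cells by the ratio of means, 14.2-fold lower in EZHIP cells and 23.4-fold lower in EED-null cells. The EED-null fold was 41.0 without EED-null replicate 1 and 16.4 without EED-null replicate 2. On the log2(value + 1) scale, which understates changes of low values, the differences were 1.68, -3.71 and -4.47 (limma SE 0.34 each). In these comparisons 41.4% of all 875 genes were called higher in K27M cells, 43.1% lower in EZHIP cells and 25.1% lower in EED-null cells (adjusted p under 0.05 and at least 2-fold), and nothing is read from the position of the chosen genes. The scaling of the libraries bears on the size: rescaling on the listed genes moved the median difference of all genes by -0.45 in K27M, -0.39 in EED-null and -0.31 in EZHIP cells. The K27M difference of *D14Ertd668e* was then 1.22. Every listed gene was selected for a difference between EZHIP and control, so the rescaling rests on no genes chosen as unchanged. Its shift can come from that selection as well as from library scaling, and these cannot be told apart here.

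*Gm4902* lay near the limit of detection in the 2 low groups. Control libraries held 28.7 and 16.8 normalized reads, K27M libraries 58.1 and 42.2, EZHIP libraries 1.18 and 0, and both EED-null libraries 0. The single positive EZHIP value is 1 read. Both K27M libraries were above both control libraries, the EZHIP and EED-null libraries were below them, and EZHIP and EED-null overlapped at 0. Group means were 0 (EED-null), 0.592 ± 0.837 SD (EZHIP), 22.8 ± 8.43 (control) and 50.2 ± 11.2 (K27M), n = 2 each. The control libraries differed from each other by more than those of *D14Ertd668e*, and *Gm4902* was not detectable in EED-null cells at this depth.

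*Gm4902* was 2.20-fold higher in K27M than in control cells by the ratio of means, with a log2(value + 1) difference of 1.14 (limma SE 0.42). That difference was 0.77 without control replicate 2, 1.51 without control replicate 1 and 0.69 after rescaling on the listed genes, so it was higher throughout but under 2-fold in part of these settings. In EED-null cells *Gm4902* was at least 12.7-fold lower than in control, against a floor of 3 reads over the group; without EED-null replicate 1 or 2 the bound was 7.50 or 5.24. In EZHIP cells the pooled ratio of control to EZHIP was 37.7, with an exact binomial 95% counting interval of 6.47 to 1518. Without EZHIP replicate 1, which held the read, the bound was at least 6.37-fold. The ratio of means was 38.5, and 19.2 without EZHIP replicate 2. The fitted log2 differences of -4.52 in EED-null and -3.96 in EZHIP cells (limma SE 0.42 each) depend on the pseudocount and are no bound. EZHIP and EED-null could not be ordered for this gene at this depth.

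**Figure D1:**
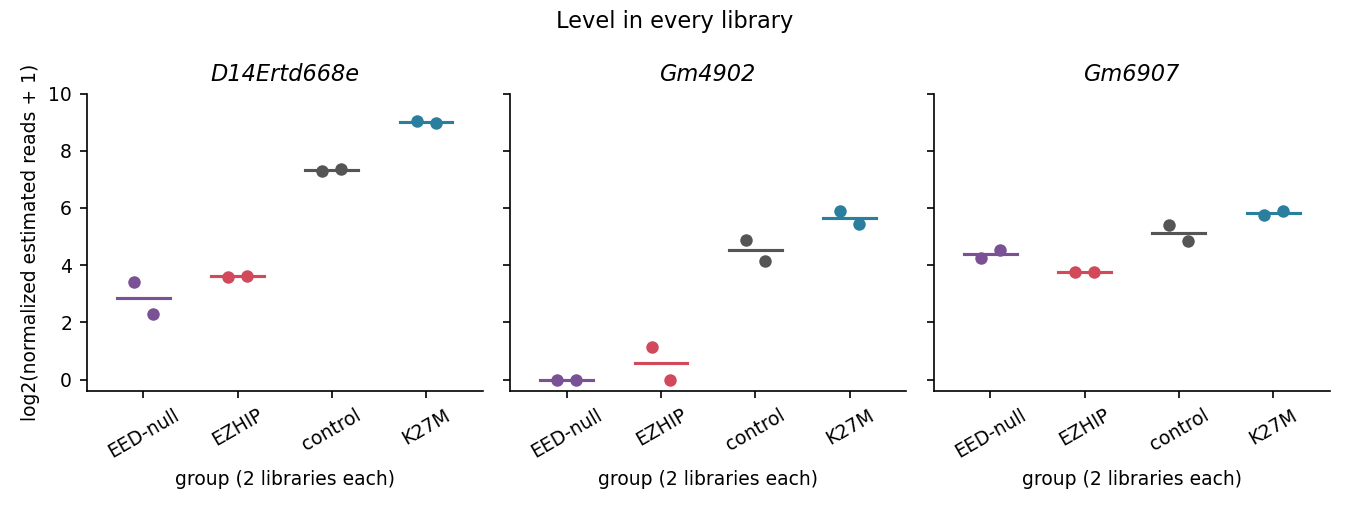
Level of *D14Ertd668e*, *Gm4902* and *Gm6907* in each of the 8 libraries, on an axis of log2(normalized estimated reads + 1); points are libraries and lines are means of 2. *D14Ertd668e* runs from 3.88 to 520.6 normalized reads and *Gm4902* from 0 to 58.1, while *Gm6907* stays between 12.5 and 58.8.

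Per kilobase of annotated transcript, *D14Ertd668e* was also the higher gene in control cells. Its mean level was 59.6 normalized reads per kb by its longest transcript and 140.7 by its shortest, against 19.6 for *Gm4902* and 9.96 for *Gm6907*. In K27M cells the levels per kb were 191.8 to 452.6, 43.1 and 16.2. In EED-null cells the level of *Gm6907* (5.83 per kb) lay within the range of *D14Ertd668e* (2.55 to 6.01). In EZHIP cells *Gm6907* (3.64 per kb) lay below the range of *D14Ertd668e* (4.21 to 9.94). The ratio of *D14Ertd668e* to *Gm4902*, in normalized reads, was 5.37 and 9.74 in the control libraries and 8.96 and 11.9 in the K27M libraries. These ranges overlap. *Gm6907* made up 18.5% and 13.2% of the summed signal of the 3 genes in control libraries and 8.42% and 9.75% in K27M libraries. In EZHIP libraries its share was 50.8% and 52.4%, and in EED-null libraries 65.0% and 85.2%.

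*Gm6907*, the family neighbour that was not chosen, differed from control in the same directions by smaller amounts. Control libraries held 41.5 and 27.4 normalized reads, K27M libraries 53.2 and 58.8, EED-null libraries 18.0 and 22.3, and EZHIP libraries 12.6 and 12.5. The groups did not overlap, and the order differed from that of *D14Ertd668e*, since EZHIP was below EED-null. On the log2(value + 1) scale *Gm6907* differed from control by 0.71 (SE 0.21) in K27M cells, with an adjusted p of 0.0206 in limma (Benjamini-Hochberg over 875 genes), higher in 2 of 2 libraries. In EED-null cells the difference was -0.72 (SE 0.21, limma adjusted p 0.0188), lower in 2 of 2 libraries. Both were under 2-fold, so *Gm6907* was not called in either comparison. The calls rested on the control libraries: without control replicate 1 the K27M difference was 1.01 and called, and without control replicate 2 the EED-null difference was -1.01 and called. With the other control library left out they shrank instead, to 0.42 in K27M cells (without replicate 2) and -0.43 in EED-null cells (without replicate 1). After rescaling the libraries on the listed genes the differences were 0.27 and -1.10, with the second called. In EZHIP cells the difference was -1.35 (SE 0.21), where selection of the table required at least a 2-fold difference. A difference in response between *Gm6907* and its neighbours was not tested.

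**Figure D2:**
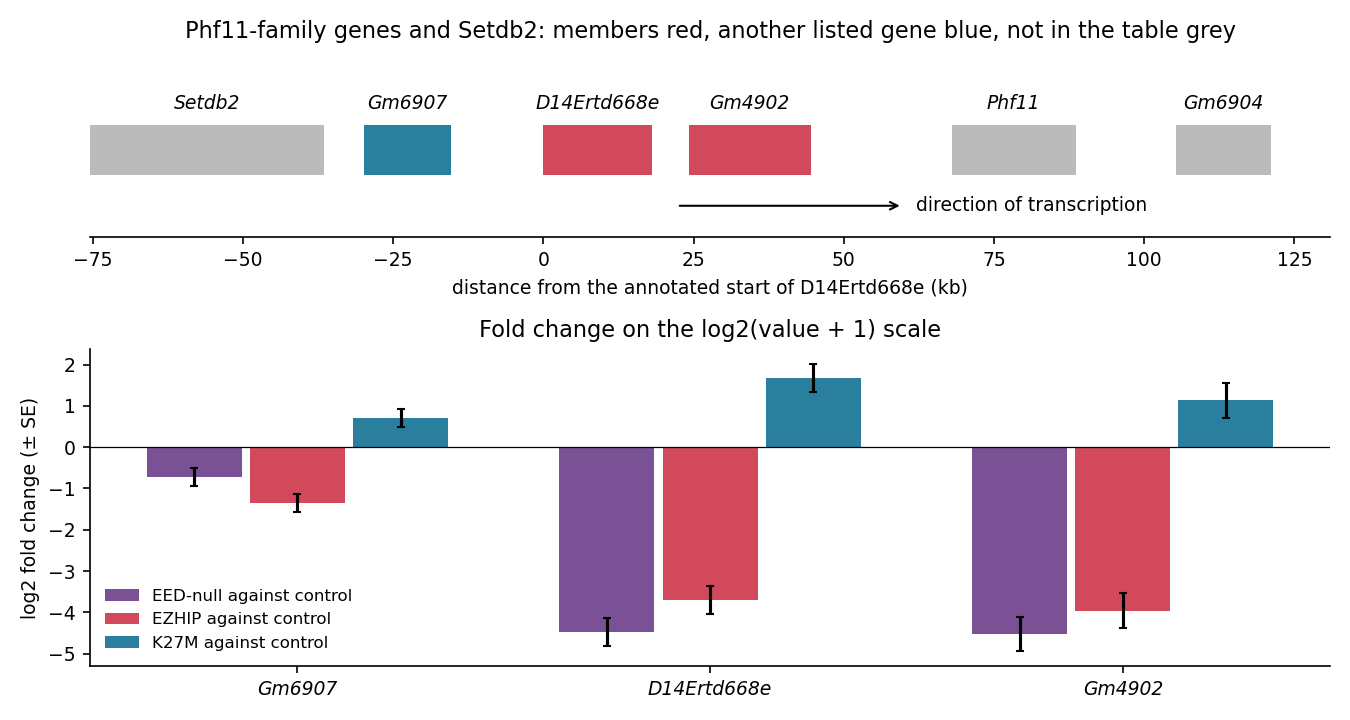
Top, order of the *Phf11*-family genes and *Setdb2* by distance in kb from the annotated start of *D14Ertd668e*; bottom, log2 fold change against control (bars, SE as error bars) of the 3 listed family genes. *D14Ertd668e* and *Gm4902* lie between -3.71 and -4.52 in EED-null and EZHIP cells, and *Gm6907* at -0.72 and -1.35.

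Other genes near the pair gave few values. Within 1 Mb the annotation holds 17 protein-coding genes, of which 3 are listed, all of the *Phf11* family. Within 2 Mb the table adds *Tnfrsf19*, a TNF receptor family member 1.60 Mb away. Its control libraries held 42.1 and 34.7 normalized reads, EZHIP libraries 184.6 and 169.9, EED-null libraries 66.5 and 72.7, and K27M libraries 27.8 and 35.0. EZHIP libraries were the highest and K27M overlapped control, a pattern unlike that of the family genes. *Tnfrsf19* was not called in K27M (log2 difference -0.28, SE 0.16, limma adjusted p 0.143) or EED-null cells (0.85, SE 0.16, limma adjusted p 0.00274, under 2-fold). Chromosome 14 holds 28 listed genes beside the pair, *Gm6907* and *Tnfrsf19* included. In K27M cells 16 of them were called higher and 7 lower, where 41.4% and 20.0% of the whole table were. In EED-null cells 13 were called higher and 5 lower, where 39.9% and 25.1% of the whole table were. Their median log2 differences were 1.24 and 0.75, or 1.12 and 0.56 with genes at 0 in a group set to their bounds, beside 0.58 and 0.40 over the table (0.58 and 0.39 with bounds).

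The profiles most like that of the pair were found by the root mean square (RMS) difference over 8 libraries of centred log2(value + 1). In order they were *Col14a1* (0.259), *Sp110* (0.402), *Oas1a* (0.409), *Gm4951* (0.585), *Gm7609* (0.619), *Slfn2* (0.658), *Mx1* (0.690), *Car9* (0.694), *Trim30a* (0.768) and *Eln* (0.825). *D14Ertd668e* and *Gm4902* differed from each other by 0.513 on this measure, and *Gm6907* ranked 99. These genes were chosen for their likeness and their differences carry no test. *Col14a1*, which encodes a fibril-associated collagen, held 248.4 and 272.4 normalized reads in control libraries, 769.8 and 994.0 in K27M, 23.7 and 17.1 in EZHIP, and 13.9 and 12.6 in EED-null. As for *D14Ertd668e*, no groups overlapped and EED-null was the lowest. *Oas1a*, a 2'-5' oligoadenylate synthetase, held 419.0 and 354.1 in control, 869.1 and 874.0 in K27M, 34.3 and 20.7 in EZHIP, and 12.5 and 5.20 in EED-null libraries. *Eln*, which encodes elastin, was below control in K27M libraries, with 1388 and 1750 normalized reads against 2478 and 2325 in control. Of the 10 genes, 5 are on the interferon-response list: *Sp110*, *Oas1a*, *Slfn2*, *Mx1* and *Trim30a*. That list holds 51 of all 875 genes, and 50 of the 378 beside the pair with a lower EZHIP mean. Nothing is read from the count, since the 10 genes were chosen for their likeness. The choice depends on the measure, since only 3 of the 10 were among the nearest by Pearson's r, against 7 to 9 with either gene alone or another pseudocount.

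**Figure D3:**
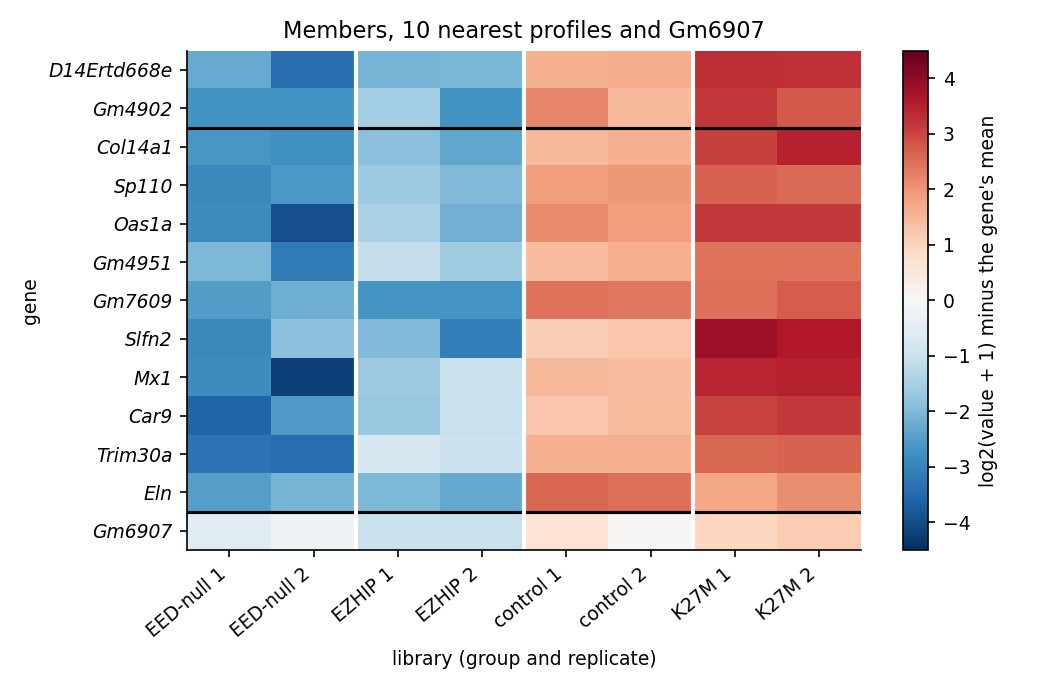
Centred log2(value + 1) of the 2 genes, the 10 nearest profiles and *Gm6907* (rows) in the 8 libraries (columns, by group and replicate); red is above and blue below the gene's own mean. The upper 12 rows are blue in EED-null and EZHIP and red in control and K27M libraries, with *Eln* less red in K27M than in control, and *Gm6907* is pale throughout.

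Genes known to respond to interferon were counted from a list of 138 symbols, of which 51 are in the table and none is *D14Ertd668e* or *Gm4902*. In EED-null cells 47 of the 51 were called lower and 1 higher, beside 25.1% lower and 39.9% higher over all 875 genes. Their median log2 difference was -2.14, also with the gene at 0 set to its bound, beside 0.40 over the table. In K27M cells 24 of 51 were called higher and 2 lower, beside 41.4% higher and 20.0% lower over the table, with medians of 1.01 and 0.58. In EZHIP cells 50 were lower and 1 higher, where selection for a difference applies to every gene (56.0% of the table called higher and 43.1% lower). The medians there were -1.51 for the list and 1.16 for the table. These 3 comparisons share the control libraries, and 50 of the 51 genes had a lower mean in EZHIP than in control cells, so the whole table is an uneven background for the list. Among all 378 listed genes beside the pair with a lower EZHIP mean, a background chosen after the data had been seen, 54.8% were called lower and 2.91% higher in EED-null cells (median -1.13), and 13.5% higher and 39.9% lower in K27M cells (median -0.69). After rescaling on the listed genes, K27M calls over the table were 304 higher and 243 lower in place of 362 and 175, and 17 of 51 interferon-response genes were called higher and 2 lower.

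Among the listed interferon genes, the 4 largest called rises in K27M cells were *Oas2*, *Slfn2*, *Ddx60* and *Oasl1*. *Oas2*, an oligoadenylate synthetase, had 210.4 and 228.8 normalized reads in control, 1411 and 1606 in K27M, 39.1 and 37.6 in EZHIP, and 2.77 and 5.81 in EED-null libraries. Its difference in K27M cells was 2.77 (SE 0.27, limma adjusted p 1.43e-04) and in EED-null cells -5.44 (SE 0.27, limma adjusted p 7.43e-06). K27M was highest and EED-null lowest, with no overlap. *Ddx60*, a helicase, rose by 2.54 (SE 0.18, limma adjusted p 3.06e-05) in K27M cells. *Oasl1* rose there by 2.45 (SE 0.25, limma adjusted p 1.75e-04). *Slfn2*, which is also a nearest profile so that nothing is read from its call, held 37.6 and 42.1 normalized reads in control and 258.7 and 216.8 in K27M libraries. Only *Ifitm1* and *Ifi30* were called lower in K27M cells. *Ifitm1*, an antiviral membrane protein, ran opposite to the pair in every group: 21.6 and 26.6 normalized reads in control, 4.64 and 12.2 in K27M, 85.2 and 84.4 in EZHIP, and 128.9 and 123.1 in EED-null libraries. Its K27M difference was -1.53 (SE 0.38, limma adjusted p 0.00975), and -0.91 and not called without K27M replicate 1. *Ifi30*, a lysosomal thiol reductase, differed by -1.41 in K27M cells (SE 0.10, limma adjusted p 3.73e-05).

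**Figure D4:**
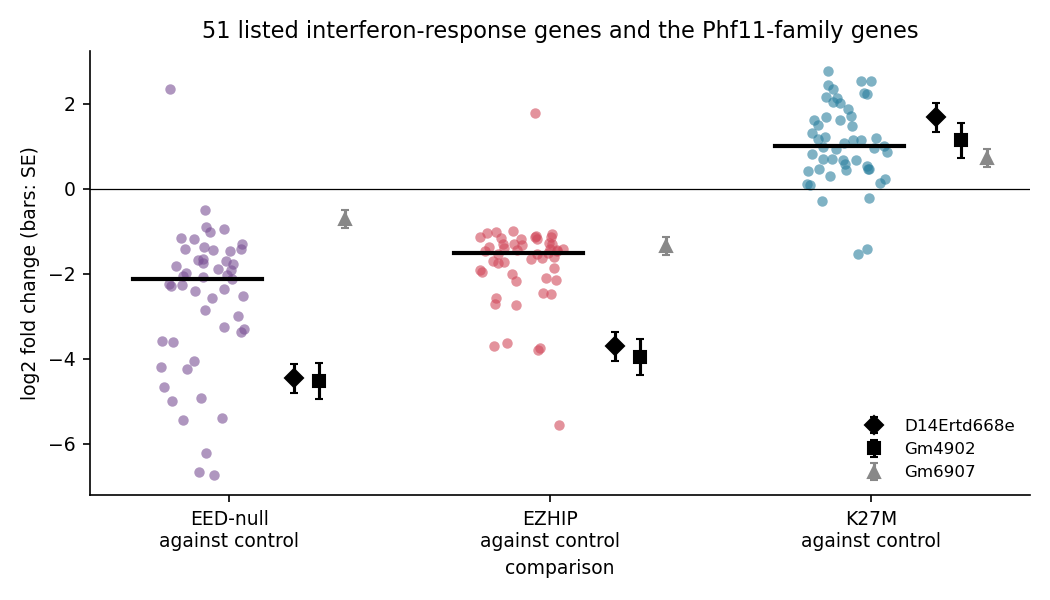
Log2 fold change against control of the 51 listed interferon-response genes (dots, black line at the median) with *D14Ertd668e*, *Gm4902* and *Gm6907* (symbols, bars are SE), for each of 3 comparisons. Medians are -2.14 in EED-null, -1.51 in EZHIP and 1.01 in K27M cells; *D14Ertd668e* and *Gm4902*, chosen for this pattern, are drawn beside the list as a description.

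Of 52 genes on a list of PHD-finger proteins, 4 are in the table beside the pair: *Gm6907*, *Phf19*, *Sp110* and *Sp140*. *Sp110* and *Sp140* encode speckled proteins that are also on the interferon list. *Sp140* held 98.3 and 114.7 normalized reads in control, 148.4 and 143.0 in K27M, 21.8 and 10.6 in EZHIP, and 0 in both EED-null libraries. *Sp110* held 64.7 and 67.9 in control, 111.3 and 102.3 in K27M, 4.73 and 3.42 in EZHIP, and 1.39 and 1.94 in EED-null libraries. *Sp110* is a nearest profile, and its log2 differences of -4.67 in EED-null and 0.68 in K27M cells (SE 0.17 each) carry no test. *Sp140* was called lower in EED-null cells, from its control level to 0 (limma adjusted p 5.13e-06), and was not called in K27M cells (0.45, SE 0.30, limma adjusted p 0.210). *Phf19*, a PRC2 accessory subunit and the only listed gene of 25 on a PRC2 list, held 311.1 and 274.6 in control, 338.5 and 327.0 in K27M, 228.7 and 204.5 in EED-null, and 112.4 and 123.1 in EZHIP libraries. *Phf19* was not called in K27M (0.19, SE 0.12, limma adjusted p 0.195) or EED-null cells (-0.43, SE 0.12, limma adjusted p 0.0147). In K27M cells *Phf19* and *Sp140* changed sign after rescaling, to -0.27 and -0.0030.

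Markers of cell types could be read in part. Of 9 fibroblast markers 2 are listed, *Col3a1* and *Dcn*, and both were detected in all libraries. Their summed level was 18030 and 17625 normalized reads in control, 6926 and 6447 in EZHIP, 5802 and 5715 in EED-null, and 5398 and 5772 in K27M libraries. The sum was mostly *Col3a1* in all groups but K27M, where *Dcn* was the larger part. *Col3a1* held 17665 and 17245 in control and 2206 and 2517 in K27M libraries, a 7.39-fold lower mean, while *Dcn* was 8.66-fold higher, so the sum hides opposite changes there. *Dcn*, which encodes decorin, had its group means in the order of *D14Ertd668e*, with 364.4 and 380.1 normalized reads in control, 3192 and 3255 in K27M, 129.0 and 179.0 in EZHIP, and 69.3 and 73.6 in EED-null libraries. No groups overlapped, and *Dcn* ranked 19 in likeness to the pair. Its log2 difference was 3.11 in K27M cells (SE 0.17, limma adjusted p 1.10e-05) and -2.36 in EED-null cells (SE 0.17, limma adjusted p 2.95e-05). None of 9 macrophage and 6 lymphocyte markers is listed. Of 4 endothelial markers *Kdr* is listed, with 9.24 and 9.60 normalized reads in control and 156.8 and 222.1 in K27M libraries, and 11.1 and 10.7 in EED-null and 52.1 and 51.3 in EZHIP libraries. Of 5 epithelial markers *Epcam* and *Krt14* are listed, with sums of 6.16 and 3.69 in control, 109.4 and 140.7 in K27M, 43.0 and 24.4 in EED-null, and 59.2 and 36.5 in EZHIP libraries; *Krt14* was at 0 in both control libraries. The endothelial and epithelial markers were high in K27M libraries, as was the pair, and above control in EZHIP libraries, where the pair was low. Their part in the result was not tested. In bulk RNA, fewer cells of a type and less RNA per cell cannot be told apart.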

How the data were processed

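Groups and replicate numbers of the 8 MEF libraries were taken from the sample labels. The deposited signal is the estimated reads per gene that the authors obtained with RSEM and divided by 1 size factor per library; the submitters' processing notes name RSEM 1.2.4 and mm9. Whether RNA of another cell line, added to each sample, entered the size factors is not given in the sources used here. The value of 1 read in each library was inferred from the spacing of its values. Estimated reads, floors and counting intervals given here rest on that inference. On that scale, between 76.7% and 85.7% of a library's values were whole reads within 0.02, so no count model was fitted to compare groups. Poisson and binomial intervals were used only for counting error of single genes. Estimated reads on the listed genes ranged from 209390 to 424561 per library. Replicates differed by a chi-square per gene of 1.57 (control) to 3.64 (K27M), and p-values measure only the spread between these libraries, which may be technical.

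A model with 4 group means was fitted to log2(value + 1) of all libraries (limma 3.58.1, R 4.3.3). A gene was called at an adjusted p under 0.05 (Benjamini-Hochberg, 875 genes) and at least 2-fold; the step was tested on simulated data. EBSeq, which the authors used, was not run. Other tools were Python 3.11.15, pandas 2.3.3, numpy 2.4.6, scipy 1.17.1, Biopython 1.88 and matplotlib 3.10.9.

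Named genes were the pair, the 10 nearest profiles, listed genes within 2 Mb (1 Mb held under 3 beside the pair), listed PHD-finger and PRC2 genes, up to 4 largest called rises and falls of interferon-response genes in K27M cells, and listed cell type markers. The members and lists were chosen with earlier results of these data known. Alternatives were each library left out, fitting only the groups compared, the replicate number as a block, pseudocounts of 0.1 and 5, a mean of at least 5, rescaling by median ratios over the table and, for likeness, Pearson's r and each gene alone.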

Additional observations from a re-analysis of the deposited data

How the results depend on the processing

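Directions of *D14Ertd668e* and *Gm4902* against control held under pseudocounts, rescaling and each library left out, while sizes moved. The pair was chosen for these directions and its groups did not overlap control, so pseudocounts and left-out libraries could not reverse them. With a pseudocount of 0.1 or 5, the log2 difference of *Gm4902* was -7.79 or -2.44 in EED-null and -5.95 or -2.29 in EZHIP cells, since the low groups hold 0 or 1 read. For *D14Ertd668e* in EZHIP cells it was -3.81 or -3.34, and -4.02 after rescaling, which also gave 1.22 in K27M cells. With each library left out, *D14Ertd668e* ranged from 1.64 to 1.72 in K27M, from -5.04 to -3.90 in EED-null and from -3.75 to -3.67 in EZHIP cells. *Gm4902* ranged from 0.77 to 1.51, from -4.89 to -4.15 and from -4.52 to -3.40.

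Counts of called genes stayed within 1.5 times under all alternatives run. Interferon-response calls in K27M cells were 19 after rescaling and 23 to 27 with a library left out, against 26. With the replicate number as a block, calls over the table were 536 in K27M, 566 in EED-null and 867 in EZHIP cells, against 537, 569 and 867, and interferon-response calls were 26, 48 and 51, as without the block. The numbers are not stated to pair the libraries, and deviations of same-numbered libraries correlated between -0.09 and 0.11.

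After rescaling, 4 differences changed sign: *Gm7609* (-0.25), *Phf19* (-0.27) and *Sp140* (-0.0030) in K27M cells, and *Kdr* (-0.17) in EED-null cells. These were not called, and the shift of the median by the rescaling itself exceeds each original difference but that of *Sp140*, which it about equals. Nearest profiles by Pearson's r shared 3 of 10; the cause was not tested. With a library left out, a group of 1 is assumed to vary like the others. Depth limits *Gm4902* in EZHIP and EED-null cells, and division of reads among family copies was not tested.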
